A study of Mus musculus with 10 samples.

Results

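The 2 arrays that hold skeletal muscle RNA of adult female C57BL/6 mice, out of 10 arrays in the series, were examined for the make-up of the messages of the tissue. They were chosen by their sample labels, which name muscle. Each was compared with the 4 other tissues on the same chip: pancreas, liver, hypothalamus and an adipose-labelled sample, whose source label reads white adipose tissue and whose title names a preconfluent state. All groups share the strain, sex and adult age, Trizol extraction of total RNA and labelling of 10 µg as biotin cRNA for Affymetrix arrays. The labels do not say which muscle was taken, how many mice gave RNA or whether it was pooled. Each tissue has 1 array on chip A and 1 on chip B, so differences are given without a test, and precision is limited by the number of arrays.

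Skeletal muscle is built of long fibres filled with sarcomeres, in which thick filaments of myosin pull on thin filaments of actin held at the Z disc. Calcium released from the sarcoplasmic reticulum acts on troponin to start contraction and is pumped back to end it, and ATP is restored by creatine kinase, by breakdown of glycogen and by mitochondria. Many of these proteins are made from gene families in which muscle uses a form of its own, and fast and slow fibres use different forms again.

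Intensities were deposited on a linear scale, and many are below 0. The noise bound of each array was the 1st percentile, taken without its sign. It was 1063 for muscle on chip A and 1633 on chip B, against 260 to 1165 and 654 to 2603 in the other tissues, where pancreas was the highest on both chips. In muscle, 1080 of 6523 probe sets on chip A and 735 of 6534 on chip B lay above it, while 66 lay below its negative on each chip. Of 13057 probe sets in all, 7542 carried 1 gene symbol, for 6137 genes. Probe sets without a single symbol held 14.95% of the positive signal of muscle on chip A and 51.4% on chip B, so the account by gene is less complete on chip B. The repeat between chips rests mostly on control probe sets, since only 3 of the 13 that were on both chips and above noise in both muscle arrays were not controls. Among these 13, the value on chip B exceeded that on chip A by a median of 0.44 on the log2 scale, with an SD of 0.28. Folds were therefore taken only across tissues within a chip. Ranks and shares of signal do set probe sets of 1 array side by side, and probe sets differ in brightness.

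The labelled tissue was checked against 4 markers. Ckm, the creatine kinase of the muscle cytosol, read 176033 in muscle, against 687 in pancreas, 601 in liver, 386 in hypothalamus and 315 in the adipose-labelled sample. Acta1, skeletal alpha-actin, read 72981 in muscle and 114, 53, 322 and 1058 in the same order of other tissues. Atp2a1, the pump that returns calcium to the stores of fast fibres, read 125735 in muscle, -1285 in pancreas and between -76 and 225 elsewhere. Tnnt3, the troponin T of fast fibres, read 76155 in muscle and between -209 and -41 in the other 4. All 4 markers stood far above every other tissue, and in the other tissues only Acta1 in hypothalamus and in the adipose-labelled sample passed the noise bound. The second probe set of Ckm read 158551 in muscle and 1338 to 2401 elsewhere, and it passed the bound in liver, hypothalamus and the adipose-labelled sample.

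The promoters of 3 genes are shown because they code for bright messages called higher in muscle from 3 functions: a thin filament actin, the creatine kinase and, at rank 38 of chip B, the myosin heavy chain of the fastest fibres. The 250 bases before the annotated start come from RefSeq on build GRCm38.p6, 5′ to 3′ in the direction of the gene. Capitals mark CAGCTG, a form of the E box bound by myogenic regulators, which reads the same on both strands, and matches to TATAAA, the CArG box of serum response factor and the MEF2 site on either strand.
Acta1 (chr8:123894776-123895025, minus strand): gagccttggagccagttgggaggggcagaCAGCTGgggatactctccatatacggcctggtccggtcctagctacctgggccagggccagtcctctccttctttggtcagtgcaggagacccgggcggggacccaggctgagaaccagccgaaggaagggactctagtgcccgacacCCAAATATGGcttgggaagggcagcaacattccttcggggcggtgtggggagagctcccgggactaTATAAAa
Ckm (chr7:19410844-19411093, plus strand): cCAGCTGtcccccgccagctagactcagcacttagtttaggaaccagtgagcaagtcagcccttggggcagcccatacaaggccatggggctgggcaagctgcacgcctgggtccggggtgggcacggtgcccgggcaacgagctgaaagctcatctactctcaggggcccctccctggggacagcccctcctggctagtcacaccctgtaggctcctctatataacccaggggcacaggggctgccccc
Myh4 (chr11:67237562-67237811, plus strand): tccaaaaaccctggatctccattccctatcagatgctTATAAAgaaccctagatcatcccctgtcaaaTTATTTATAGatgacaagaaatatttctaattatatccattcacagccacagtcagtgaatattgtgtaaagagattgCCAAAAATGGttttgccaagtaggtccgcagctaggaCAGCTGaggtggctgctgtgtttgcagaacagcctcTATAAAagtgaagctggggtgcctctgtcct
In Acta1 the E box begins 221 bases before the start, a CArG box lies 73 to 64 bases before it and TATAAA from 7 to 2. In Ckm the window holds a single match, the E box from 249 to 244 bases before the start. Myh4 holds the E box at 67 to 62 bases, a CArG box at 104 to 95, a MEF2 site at 182 to 173 and 3 matches to TATAAA, of which the one at 179 to 174 lies on the other strand and inside the MEF2 site. A CAGCTG stood in 13.0% of all 32851 promoters of the table and in 20.1% of 134 promoters of 105 genes that were higher in muscle by the rule below. The CArG box stood in 1.47% and 4.48%, the MEF2 site in 2.92% and 3.73% and TATAAA in 12.4% and 13.4%. Over the 6262 promoters of all named genes on the arrays the 4 shares were 12.1% for CAGCTG, 1.47% for the CArG box, 1.64% for the MEF2 site and 9.17% for TATAAA. Among only 16 promoters of genes lower in muscle, 1 held CAGCTG, 1 a CArG box, 0 a MEF2 site and 3 TATAAA. These matches are letters in a window, and no binding was measured.

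The muscle signal was concentrated in few probe sets. The brightest probe set held 1.57% of all positive signal on chip A and 2.14% on chip B. The top 10 held 11.9% and 15.9%, the top 50 held 27.6% and 38.8%, and the top 100 held 37.1% and 50.2%. On chip A, 227 probe sets were needed to reach 50% of the signal, and on chip B 99. The other tissues needed 253 in pancreas, 266 in liver, 343 in the adipose-labelled sample and 410 in hypothalamus, all on chip A, and 142, 173, 232 and 279 in that order on chip B. Muscle was thus the tissue that reached that share with the fewest probe sets on both chips. Pancreas came nearest: its top 10 held 7.74% on chip A and 15.9% on chip B, where its single brightest probe set held 2.38%, more than the brightest of muscle. The order turned with the number counted, since the top 500 held 63.3% in muscle and 64.7% in liver on chip A. In bulk RNA, fewer cells of a type and less RNA per cell cannot be told apart, and a share of signal is not a share of molecules, because probe sets differ in brightness.

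**Figure D1:**
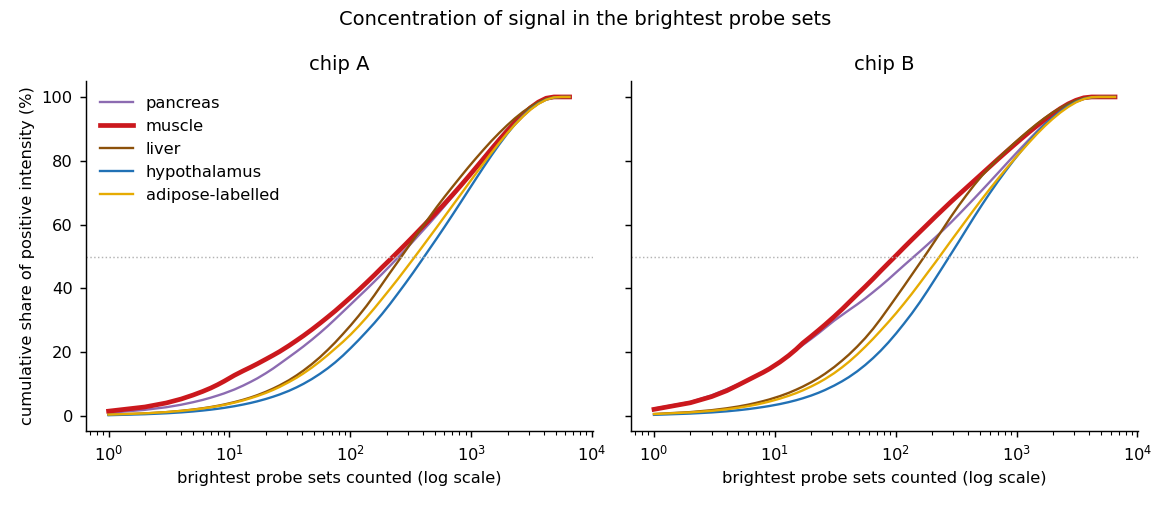
Cumulative share of the positive intensity of an array (y axis, percent) held by its brightest probe sets (x axis, number counted, log scale), for 5 tissues on chip A (left) and chip B (right), 1 array each; the dotted line marks 50%. The muscle curve (thick red) crosses it first, at 227 probe sets on chip A and 99 on chip B.

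Only part of this top was shared with the other tissues. Of the 100 brightest probe sets of muscle on chip A, 26 were among the 100 brightest of pancreas, 18 of liver, 32 of hypothalamus and 35 of the adipose-labelled sample. On chip B the numbers were 21, 21, 28 and 31. None of the 10 brightest on chip A was in the top 10 of another tissue, and on chip B 1 was in that of hypothalamus and 1 in that of the adipose-labelled sample. The bright end of muscle held 15 probe sets for proteins of the filaments and Z disc among its top 100 on chip A and 5 on chip B. The lists of glycolysis, the phosphagen system, fatty acid use, the citrate cycle and oxidative phosphorylation filled 28 and 20 places. Ribosomal proteins filled 5 and 5, and unnamed probe sets 20 and 54. None of the 100 was from the list of the endoplasmic reticulum, the proteasome or the myogenic regulators.

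A probe set was called higher in muscle where its value passed the muscle bound and was at least 2 times every other tissue's value, with values within noise raised to the bound of their array. By this rule 113 probe sets were higher on chip A, which is 1.73% of those on the chip, and 103 on chip B, which is 1.58%. They held 30.2% of the positive signal of muscle on chip A and 43.9% on chip B. In the other tissues the same probe sets held at most 5.61% of the signal on chip A and 5.05% on chip B. For comparison, the probe sets called higher in pancreas by the same rule numbered 174 and 173 and held 29.6% and 36.5% of its signal, and those called in hypothalamus numbered 119 and 60 and held 14.3% and 11.7%. The calls chose values that are high in muscle, so the first shares are a description of what they hold. Of the 216 calls on both chips 146 had a name, for 127 genes. Only 15 of these genes had probe sets on both chips, and 7 were called on both: Aldoa, Cox6a2, Cryab, Myh6, Myl2, Slc25a4 and Tpi1. For 40 calls on chip A and 67 on chip B the fold is a lower bound, set by the noise of another array. With pancreas, the noisiest tissue, left out, 298 and 219 probe sets were called, and without all probe sets of relaxed design, which may bind more than 1 message, 21 and 5. The probe sets nearest the threshold on chip A were those of 1700097N02Rik, just inside it at 2.01-fold, and of Cops3, just outside it at 1.999-fold.

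**Figure D2:**
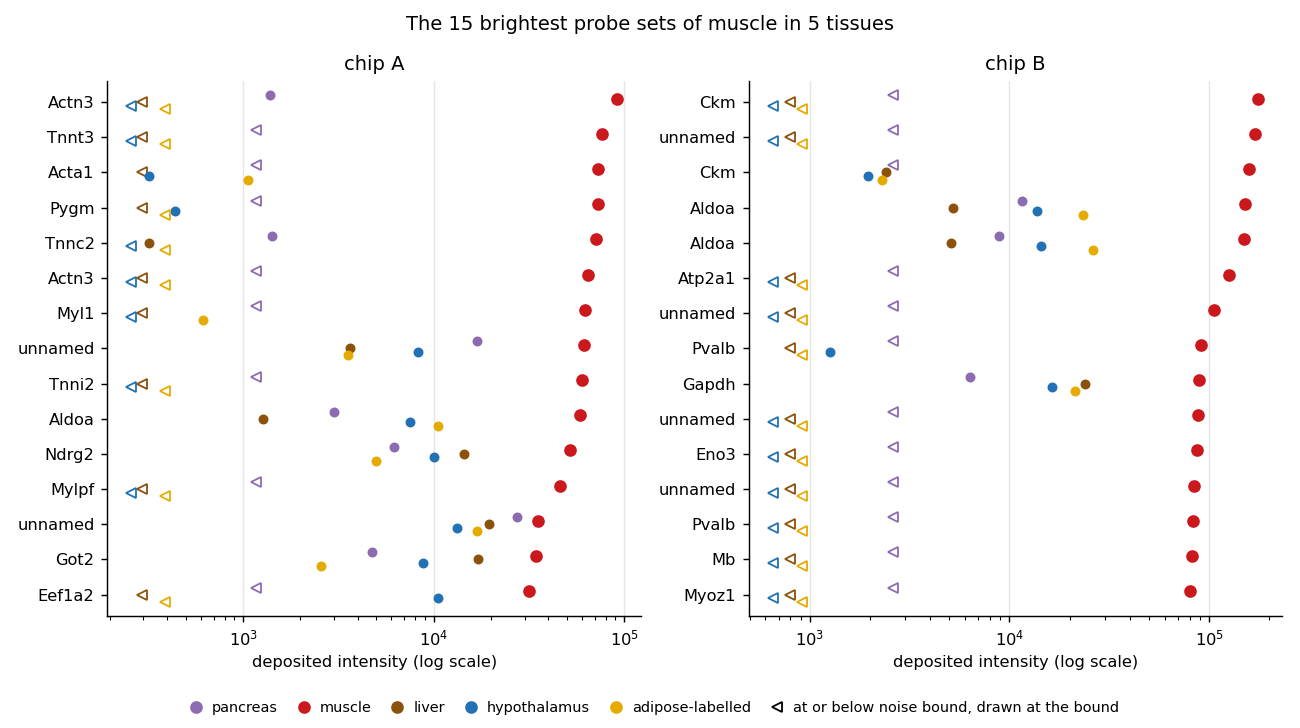
Deposited intensity (x axis, log scale) of the 15 brightest probe sets of muscle on chip A (left) and chip B (right), in rank order, for 5 tissues with 1 array each; open triangles mark values at or below the noise bound of their array, drawn at that bound. For Tnnt3, Tnni2, Mylpf, Atp2a1, Eno3, Mb and Myoz1 all other tissues lie at their bound, while Aldoa, Gapdh, Ndrg2, Got2 and 2 unnamed probe sets of chip A are above it in all 5.

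Most measured genes of the sarcomere were higher in muscle. Of 28 measured genes of the thick filament, thin filament and Z disc, 22 were called higher and none lower, against 1.99% higher and 0.244% lower over all 6137 genes, each gene taken by 1 probe set. Together they held 11.4% of the muscle signal on chip A and 2.87% on chip B, and at most 0.231% and 0.159% in any other tissue. In the thick filament 7 of 9 genes were called. Myl1, an essential light chain of fast myosin, read 62074 in muscle and 79 to 615 elsewhere, which is at least 53.3-fold. Mylpf, the regulatory light chain of fast fibres, read 46001 against 5 to 42, at least 39.5-fold. Myh4, the heavy chain of the fastest fibres, read 35307 against 67 to 836 and was at least 13.6-fold higher. The developmental heavy chains were different: Myh3 read 33 and 452 on its probe sets, both below the muscle bound, and Myh8 read 1683 in muscle and 2282 in pancreas, close to or below the bounds of those arrays.

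In the thin filament 8 of 9 genes were called. The brightest after Acta1 and Tnnt3 was Tnnc2, the calcium-binding troponin of fast fibres, with 71440 in muscle, 1413 in pancreas, 321 in liver, 124 in hypothalamus and 130 in the adipose-labelled sample. Its fold over pancreas, 50.6, is measured and not a bound. Tnni2, the inhibitory troponin of fast fibres, read 60002 in muscle and -15 to 33 elsewhere, at least 51.5-fold. Actc1, the actin best known from heart, read 20888 in muscle and 3119 in pancreas, a 6.70-fold difference, and its other probe set read 10611. The gene that was not called was Tpm1, a tropomyosin, with 799 in muscle, below the bound, and 1284 in the adipose-labelled sample.

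At the Z disc 7 of 10 genes were called. Actn3, the alpha-actinin of fast fibres, gave the brightest probe set of chip A, with 91440 in muscle, 1387 in pancreas, -59 in liver, -177 in hypothalamus and -318 in the adipose-labelled sample, a 65.9-fold difference from pancreas. Its second probe set read 64982 in muscle and at most 490 elsewhere. Myoz1, which links calcineurin to the Z disc, read 80257 against 404 to 2491, at least 30.8-fold. Des, the intermediate filament desmin, read 8950 against -65 to 434, at least 7.68-fold. Cryab, a small heat shock protein bound to desmin, was measured in 4 tissues besides muscle and was 6.53-fold above the adipose-labelled sample there, and it was called on chip B too.

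Forms of both fibre types were present. All 9 measured genes of fast fibres and 5 of 6 of slow fibres were called, and many of them are also in the lists above. The fast list held 8.13% of the muscle signal on chip A and 4.78% on chip B, and the slow list 0.938% and 0.684%. Probe sets of different genes differ in brightness, so these shares do not give a proportion of fibres. Among slow genes, Tnnc1, the troponin C of slow and heart muscle, read 21887 in muscle and -861 to 67 elsewhere, at least 18.8-fold. Myl3 and Myl2, the light chains of slow and ventricular myosin, read 36846 and 19411 on chip B, at least 14.2-fold and 7.46-fold higher. Tpm3, the slow tropomyosin, read 12623 on chip A, at least 10.8-fold higher, while its probe set on chip B read -957. Atp2a2, the calcium pump of slow muscle and of many other cells, read 11808 in muscle, 2363 in hypothalamus and 217 to 602 in the others, a 4.997-fold difference. Casq2, the slow and cardiac calsequestrin, was the gene not called, with 637 in muscle, below the bound.

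For calcium release and uptake, 4 of 7 genes were called. Pvalb, a soluble calcium buffer of fast fibres and some neurons, read 91517 in muscle, 1313 in pancreas, 77 in liver, 1260 in hypothalamus and 273 in the adipose-labelled sample, at least 35.2-fold higher, and its other 2 probe sets read 82750 and 57840. Ryr1, the calcium release channel, read 22153 against -155 to 252, at least 8.51-fold. Cacna1s, the voltage sensor that opens it, read 3740 against at most 355, at least 3.21-fold. Atp2a1 was at least 48.3-fold higher. Over all 6137 genes, 1.99% were called higher and 1141 passed the muscle bound. In the list of the surface membrane and neuromuscular junction, 0 of 17 genes were called and 4 were above that bound. Its brightest gene was Slc2a4, the insulin-regulated glucose carrier, with 4886 in muscle and 3629 in the adipose-labelled sample on 1 probe set, and 2320 and 4779 on the other, so its order turned with the probe set.

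The phosphagen list, with myoglobin, had 3 of 4 genes called and held 5.10% of the signal of chip B. Mb, the oxygen store of oxidative fibres, read 82143 in muscle and 414 to 677 elsewhere, at least 31.6-fold higher, although a second probe set of it read 189. Adssl1, the adenylosuccinate synthase of muscle, read 4674 against at most 336, at least 4.01-fold. Ak1, an adenylate kinase, was not called: it read 2772 in muscle and 3025 in pancreas.

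In glycogen breakdown and glycolysis, 10 of 19 genes were called higher and 0 lower. Their probe sets held 3.19% of the muscle signal on chip A and 8.59% on chip B, the largest share of any list on that chip, against 0.444% to 2.90% in the other tissues. Pygm, the phosphorylase that starts glycogen breakdown in muscle, read 72584 in muscle, 179 in pancreas, 124 in liver, 440 in hypothalamus and 181 in the adipose-labelled sample, at least 62.3-fold. Eno3, the muscle enolase, read 87194 against -239 to -46 and was at least 33.5-fold higher. Outside muscle these genes lay at or near the noise. Other enzymes of the list were above noise in more tissues and had smaller folds. Aldoa, the aldolase of muscle and many other tissues, read 151990 in muscle, 11564 in pancreas, 5215 in liver, 13821 in hypothalamus and 23438 in the adipose-labelled sample, a 6.48-fold difference, with 5.70-fold and 5.55-fold on its other probe sets. Pgm1, which links glycogen to glycolysis, was 5.14-fold, Pkm, the last enzyme of glycolysis, 4.75-fold, and Gapdh 3.75-fold above the next tissue. Ldha, which makes lactate, was 2.40-fold higher on 1 probe set and 1.82-fold on the one that stands for the gene here. Gys1, which builds glycogen, read 7949 in muscle and 2839 in pancreas, a 2.80-fold difference.

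Genes of mitochondria were called in smaller proportion than those of the sarcomere. Over all genes, 517 of the 1141 above the muscle bound were highest in muscle. In oxidative phosphorylation this held for 42 of 47, and 15 of 54 genes were called higher and 2 lower. The list holds the carrier Slc25a4, called higher, but not its pair Slc25a5, which was called lower and is described below. Scaling to the 75th percentile left 10 called higher and quantile normalization 8, with 2 lower under each. The list held 6.41% of the signal on chip A, against 1.98% to 4.22% elsewhere, and 3.06% on chip B, against 0.683% to 2.16%. Its median gene stood at percentile 98.2 of the muscle array and at 91.2 to 96.7 in the other tissues, where the median of all genes was 56.3 to 56.98. The largest folds were those of Cox6a2, at least 18.6 on chip A, and Cox8b, at least 12.5, the muscle forms of cytochrome oxidase subunits described with their pairs below. The other called members lay lower. Ndufa12, a subunit of complex I, was 3.87-fold and Slc25a4, the adenine nucleotide carrier of heart and muscle, 3.37-fold above the next tissue. Atp5j and Atp5g1, subunits of ATP synthase, were each 2.86-fold higher. Cycs, cytochrome c, was 2.44-fold and Cox4i1, the common subunit of cytochrome oxidase, 2.26-fold higher.

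In the citrate cycle 6 of 15 genes were called. Sdhb, the iron-sulphur subunit of succinate dehydrogenase, read 14449 in muscle and 1751 to 4158 elsewhere, a 3.47-fold difference. Mdh2, mitochondrial malate dehydrogenase, was 2.86-fold higher and Idh3a, of isocitrate dehydrogenase, 2.54-fold. Got2, the mitochondrial aspartate aminotransferase, was the brightest at 34651 and was 2.03-fold above liver. In fatty acid use only Fabp3, the fatty acid binding protein of heart and muscle, was called of 17 genes. It read 21805 in muscle, 4486 in hypothalamus and -298 to 614 in the others, a 4.86-fold difference. Lpl, which frees fatty acids from lipoproteins, read 19539 in muscle and 10246 in the adipose-labelled sample, 1.91-fold, just outside the call. Acaa2, the last enzyme of beta-oxidation, read 5647 in muscle and 15453 in liver.

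**Figure D3:**
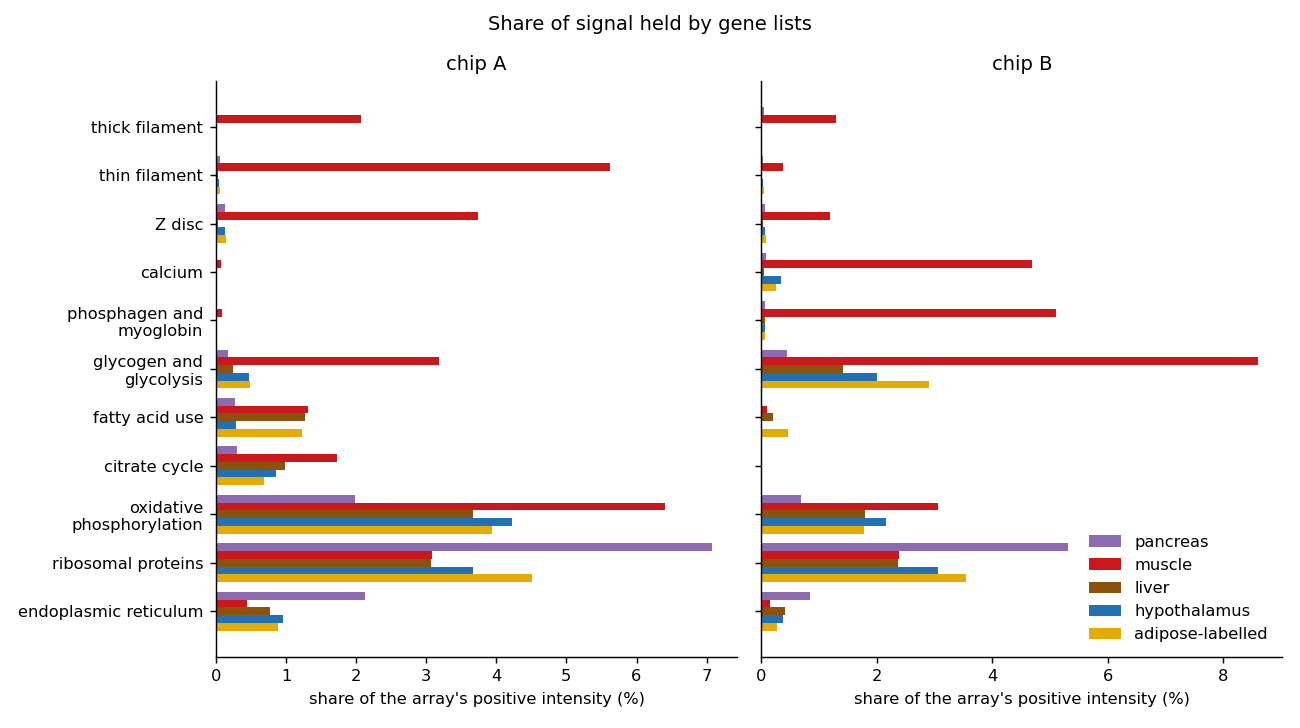
Share of the positive intensity of each array (x axis, percent, from 0) held by the probe sets of 11 gene lists, for 5 tissues on chip A (left) and chip B (right), 1 array each; lists differ in how many probe sets each chip carries. The muscle bars are the longest for the filaments, calcium, phosphagen, glycolysis and oxidative phosphorylation on both chips, and the pancreas bars for ribosomal proteins and endoplasmic reticulum.

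Several called genes stood outside these lists. Of the 5655 genes in no list, 52 were called higher, which is 0.92%, against 1.99% over all genes. Ndrg2, a gene of the N-myc downstream regulated family, was the brightest of them at 52078, against 14364 in liver and 5007 to 10033 in the others, 3.63-fold. H19, an imprinted RNA that codes for no protein, read 20215 and 17140 on its 2 probe sets and at most 673 in any other tissue, at least 7.77-fold and 6.58-fold higher. Sirt2, a deacetylase, was 3.07-fold and Vdac1, a channel of the outer mitochondrial membrane, 4.09-fold above hypothalamus, the next tissue in both. These 2 genes were chosen for mention after their values were seen. Of 21 myogenic regulators, only Nr4a1, a nuclear receptor, was called, with 9280 in muscle and 701 to 1115 elsewhere, at least 3.56-fold. In this list 6 genes were above the muscle bound and 5 of them were highest in muscle, and 4 were called with pancreas left out. Mef2c, a partner of the myogenic factors, read 3975 in muscle and 3656 in pancreas, and -95 to 68 in the others. Myod1 read 838, Myog 524, Myf5 -76 and Mstn 317 in muscle, all within the noise, and Myf6 read 1237 on chip B, also below the bound. At this signal over background their expression was not detectable, which does not show that they were absent.

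Fewer probe sets were called lower than higher in muscle. A probe set was called lower where each of the other 4 tissues passed its own bound and was at least 2 times the higher of the muscle value and the muscle bound. This gave 15 on chip A, which is 0.23% of those on the chip, and 18 on chip B, which is 0.275%, for 16 named genes. The other tissues gave 6 to 48 such calls over both chips, with 33 in muscle. The 2 rules had different numbers of probe sets open to them. Of the 1080 and 735 above the muscle bound, 10.5% and 14% were called higher. Of the 695 and 313 above the bound in all 4 other tissues, 2.16% and 5.75% were called lower. For 7 lower calls on chip A and 8 on chip B muscle was below its bound. All 33 lower calls came from probe sets of relaxed design, so none was left without them. The largest was Cox6a1, a subunit of cytochrome oxidase made in most tissues, with 728 in muscle, 6069 in pancreas, 7606 in liver, 8698 in hypothalamus and 12522 in the adipose-labelled sample. Muscle, which lay within its noise, was at least 5.71-fold below pancreas, the next lowest. Eef1a1, the elongation factor that brings aminoacyl tRNA to the ribosome, read 4662 in muscle and 12482 to 34277 elsewhere on chip A, and 7899 against 16694 to 44079 on chip B. It was 2.68-fold and 2.11-fold lower, and still well above noise in muscle.

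Ribosomal protein genes were called lower for 2 of 45 genes, Fau, 2.99-fold, and Rpl3, 3.47-fold, while Rplp2 was at least 4.46-fold lower on a probe set that does not stand for the gene here. The list as a whole held 3.08% of the muscle signal on chip A and 2.39% on chip B, against 3.06% to 7.08% and 2.37% to 5.31% elsewhere, so muscle lay close to liver. Rplp0, the brightest, read 41638 in muscle, 68565 in pancreas and 9070 to 18382 in the others, and so was not low here. Ddx17, an RNA helicase, read 889 in muscle and 3830 to 8133 elsewhere, at least 3.60-fold lower. Ppib, a cyclophilin of the endoplasmic reticulum, read 472 against 3103 to 13775, at least 2.92-fold. Ptma, prothymosin alpha, was 2.54-fold, Ftl1, the light chain of ferritin, 2.48-fold, Ppia, a cytosolic cyclophilin, 2.34-fold, Tuba1a, an alpha-tubulin, 2.13-fold and Txn1, thioredoxin, 2.12-fold lower. Scaling to the 75th percentile took Ppia and Tuba1a below 2-fold. Tmem59, a membrane protein, had a probe set called 2.29-fold lower and another called at least 2.16-fold higher, so its direction is not settled.

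Over all 6137 genes, 1.99% were called higher and 0.244% lower, and 1534 were lowest in muscle. Ppib, called lower above, is not a member of the list of the endoplasmic reticulum. That list had 0 of 26 genes called in either direction, but 7 were above the muscle bound and 13 were lowest in muscle. Its median gene stood at percentile 70.2 in muscle and 86.1 to 96.9 in the other tissues. It held 0.436% of the signal on chip A, against 0.773% to 2.12%, and 0.147% on chip B, against 0.275% to 0.839%. Quantile normalization called 4 of these genes lower and scaling to the 75th percentile 2. Calr, a calcium-binding chaperone of this compartment, read 4132 in muscle on chip B, against 15054 in pancreas and 3669 to 4436 in the others.

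**Figure D4:**
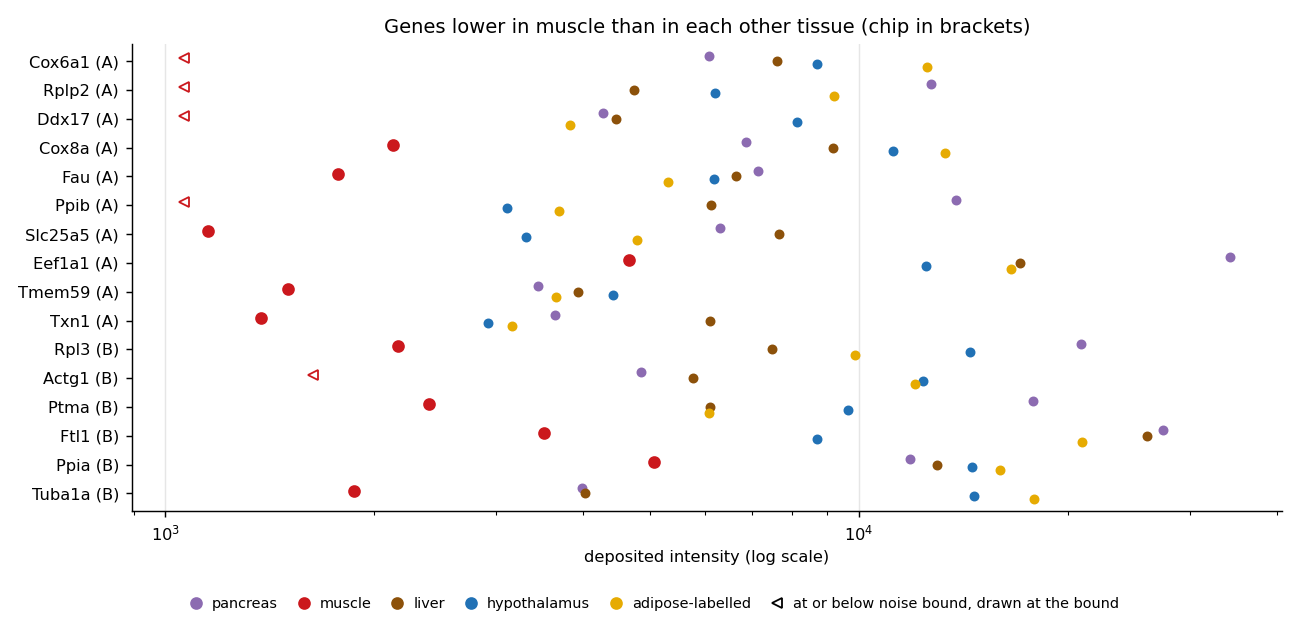
Deposited intensity (x axis, log scale) of the 16 named genes called lower in muscle than in each other tissue, 1 line per gene with the chip in brackets, for 5 tissues with 1 array each; open triangles mark muscle values at or below the noise bound, drawn at the bound. The muscle points lie left of all others, at the bound for Cox6a1, Rplp2, Ddx17, Ppib and Actg1.

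Paired forms of gene families stood at both the high and the low end. The families were chosen with earlier results of these data known. Over 26 families set up as pairs of a muscle form and forms of other tissues or fibres, 15 of 21 measured muscle forms were called higher and 0 lower. Of 27 measured other forms, 2 were called higher, Atp2a2 and Tnnc1, which are the forms of slow fibres, and 5 lower, Cox6a1, Cox8a, Slc25a5, Eef1a1 and Actg1. Among all 6137 genes the shares were 1.99% higher and 0.244% lower. Among probe sets above the bound in all 4 other tissues, 2.16% on chip A and 5.75% on chip B were called lower. In cytochrome oxidase, Cox6a2 read 21708 in muscle and -585 to -116 elsewhere on chip A, at least 18.6-fold, and 25792 on chip B, at least 9.91-fold. Cox6a1 had the largest fold of the named genes called lower. Cox8b, the form of heart and skeletal muscle, read 14611 in muscle, 879 in the adipose-labelled sample and -116 to -36 in the others, at least 12.5-fold higher. Cox8a, the form of other tissues, read 2127 in muscle, 6865 in pancreas, 9173 in liver, 11208 in hypothalamus and 13320 in the adipose-labelled sample, 3.23-fold lower. For subunit 7a the muscle form was not analysed here. Cox7a2, the form of other tissues, read 12091 in muscle and 4384 to 8987 elsewhere, so it was not low.

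The promoters of the Cox8 pair are printed because the forms went opposite ways in muscle, from the same source and with the same motifs in capitals.
Cox8b (chr7:140900447-140900696, minus strand): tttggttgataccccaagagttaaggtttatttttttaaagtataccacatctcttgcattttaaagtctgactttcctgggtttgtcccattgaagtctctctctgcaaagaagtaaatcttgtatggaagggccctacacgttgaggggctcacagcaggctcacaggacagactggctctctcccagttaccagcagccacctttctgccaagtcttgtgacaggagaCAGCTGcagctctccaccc
Cox8a (chr19:7217617-7217866, minus strand): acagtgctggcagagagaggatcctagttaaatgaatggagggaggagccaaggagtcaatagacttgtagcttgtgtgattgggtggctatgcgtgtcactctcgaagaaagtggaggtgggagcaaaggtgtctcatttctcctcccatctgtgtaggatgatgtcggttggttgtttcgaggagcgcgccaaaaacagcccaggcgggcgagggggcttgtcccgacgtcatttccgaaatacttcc
Cox8b holds the E box at 19 to 14 bases before its start, and Cox8a holds none of the 4 motifs in this window, which says only that those letters are not there.

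The adenine nucleotide carriers showed the same pattern. Slc25a4 read 16550 in muscle, 351 in pancreas, 65 in liver, 4907 in hypothalamus and 1821 in the adipose-labelled sample. Its probe set of chip B read 22462 in muscle and at most 9781 elsewhere. Slc25a5, the carrier of other tissues, read 1150 in muscle and 3310 to 7664 elsewhere, 2.88-fold lower, and its other 2 probe sets were called lower as well. Hypothalamus was second to muscle for Slc25a4 and also for Eef1a2, the elongation factor of muscle and neurons, which read 31487 in muscle, 10559 in hypothalamus and -30 to 133 in the others, a 2.98-fold difference. Among actins, Actg1, of the cytoskeleton, read 1525 in muscle, below the bound, and 4845 to 12346 elsewhere, at least 2.97-fold lower, but its probe set on chip A read 1762 against 2522 in liver and was not called. Actb read 1297 in muscle and 1122 in the adipose-labelled sample, against 4902 to 7456 in the other 3, so muscle was not lowest. Ckb, the brain creatine kinase, read 12647 in hypothalamus and 262 in muscle, within the noise, and Pygb, the brain phosphorylase, read 139 in muscle and 3286 in hypothalamus. Ldhb, the lactate dehydrogenase of oxidative tissues, was not low in muscle, at 9362 in muscle, 10305 in hypothalamus and at most 1432 elsewhere. Many probe sets of these pairs are of family design and may bind the message of a related gene.

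**Figure D5:**
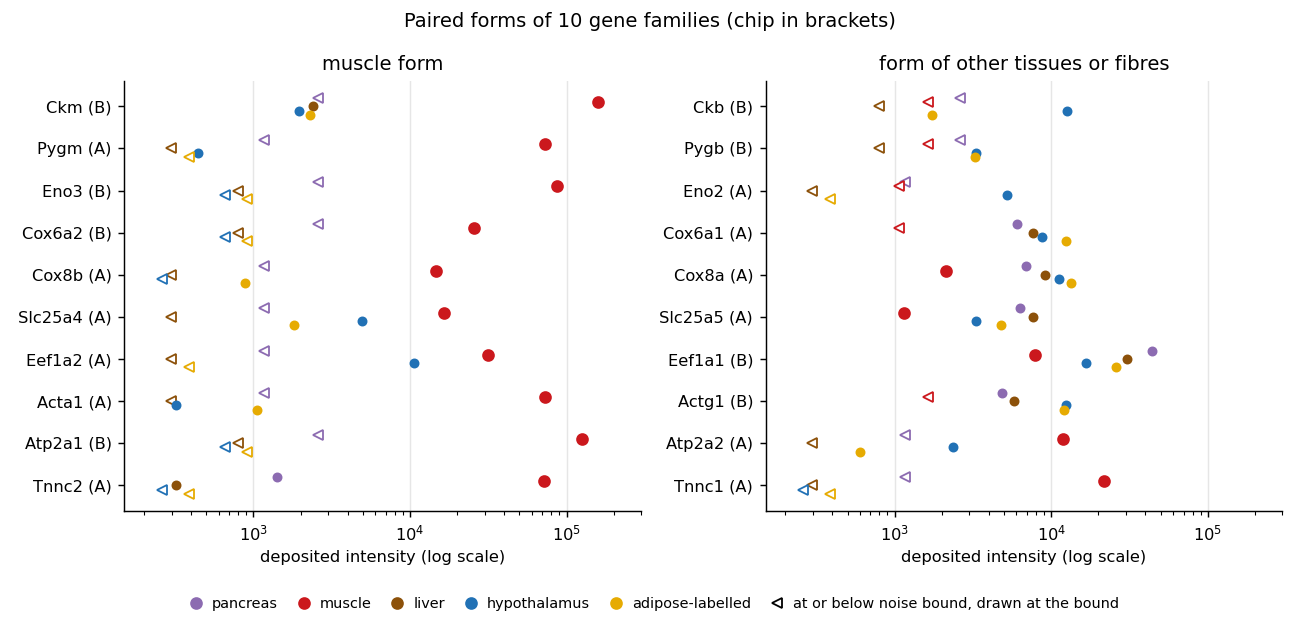
Deposited intensity (x axis, log scale) of the muscle form (left) and another form (right) of 10 gene families, 1 probe set per gene with the chip in brackets, for 5 tissues with 1 array each; open triangles mark values at or below the noise bound, drawn at the bound. On the left muscle is the highest in every line, and on the right it was called lower for Cox6a1, Cox8a, Slc25a5, Eef1a1 and Actg1 and called higher for Atp2a2 and Tnnc1.

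Listed markers of other cells a muscle sample can hold, or of cells of the other tissues, were mostly within noise or higher elsewhere. Their part in the results above was not tested. Over 11 such lists with 94 measured genes, 24 were above the muscle bound, against 1141 of 6137 over all genes. Called higher were 2, the heavy chain Myh6 of heart and Actg2 of smooth muscle. That is 2.13%, close to the 1.99% over all genes. The count covers list members only. Fmod, fibromodulin of the matrix, and Selp, P-selectin, are in no list and were called higher in muscle. Fmod read 6521 in muscle and -492 to 249 elsewhere, and Selp read 3653 in muscle and 158 to 796 elsewhere. Myh6 read 13001 and 10881 on probe sets of family design, while the other heart markers Tnnt2, Tnni3 and Myl4 read 386, 739 and 55, below the bounds. Actg2 read 4271 in muscle and 1760 in pancreas, 2.43-fold, while Acta2, of smooth muscle, read 2861 in muscle and 6553 in the adipose-labelled sample. Of 19 fibroblast and matrix genes 10 passed the bound, led by Dcn, decorin, with 23865 in muscle and 21244 in the adipose-labelled sample. The list held 0.209% of the muscle signal on chip A and 0.730% on chip B, against 0.885% and 2.79% in the adipose-labelled sample. Only 1 of 9 fat cell markers passed the bound, Car3, which muscle fibres also make, and Adipoq and Fabp4 read 986 and 894, within the noise. Hba-a1, a haemoglobin of red cells, read 23878 in muscle and 6181 to 43690 in the others. Of 8 pancreatic acinar markers 0 passed the muscle bound. Of 10 hepatocyte markers 3 did, with Alb, albumin, at 8194 in muscle, 18170 in liver and 26215 in pancreas.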

How the data were processed

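Total RNA of 5 tissues was hybridised to Affymetrix chips A and B, per the labels. The deposited values are intensities in whole numbers, already scaled by the authors, as the 2% trimmed means of the 10 arrays lay within 500.8 to 501.5. Software and presence calls: not given in the sources used here. Values below 0 imply a subtraction before deposit. After 61 controls were left out, 6523 and 6534 probe sets remained. Names came from the platform annotation, updated by gene identifier with RefSeq tables of GRCm38.p6. RefSeq on that build also gave the promoter windows. A gene with several probe sets was taken by the one with the highest mean percentile over the 5 arrays.

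Shares are of the summed values above 0. The noise bound was the 1st percentile in size, a call needed 2-fold, and values within the bound were replaced by it in folds. Named genes were, per chip, the 15 brightest probe sets, the 12 higher and 12 lower genes with the largest fold, up to 4 called genes and the brightest gene of each list, the isoform pairs and the 4 markers. Genes named beyond this rule, among them those not called, were chosen after their values were seen. The members, 31 lists and 26 families were chosen with earlier results of these data known. On simulated data the call rule was tried only with planted changes much larger than 2-fold, in bright probe sets. Its recovery of changes near 2-fold or near the noise bound was not tested. Alternatives changed the denominator, probe set design, fold, bound, scaling and comparison tissues. Computation used Python 3.11.15, numpy 2.4.6, pandas 2.3.3 and scipy 1.17.1.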

Additional observations from a re-analysis of the deposited data

How the results depend on the processing

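No paired analysis was possible because each tissue has 1 array per chip and no test was made. Counts of probe sets higher in muscle, 113 on chip A and 103 on chip B, became 34 and 64 at 4-fold, 298 and 219 with pancreas left out, and 21 and 5 without all probe sets of relaxed design; the 5th percentile bound gave 224 on chip A, and leaving out only family, rule-relaxed and incomplete designs, an alternative chosen after seeing the data, gave 56 on chip B. Counts of lower probe sets, 15 and 18, became 3 and 1 at 4-fold, 49 and 38 with the 5th percentile bound, 0 and 0 without relaxed designs and 6 and 6 without the narrower set of designs. On chip A they became 23 with 75th percentile scaling and 35 with quantile normalization, and on chip B 28 with pancreas left out. The share of the top 10 rose from 11.9% and 15.9% to 30.5% and 36.3% without relaxed designs, and to 24.4% on chip B without the narrower set, as fewer probe sets were summed. The energy lists fell from 9.46% and 3.18% to 4.04% and 0.148% without relaxed designs, and to 1.12% on chip B without the narrower set; the ribosomal proteins fell from 3.08% and 2.39% to 0.121% and 0.0237%, and to 1.08% and 0.0482%. The other 29 of 58 such values moved by less than 1.5 times, and no result reversed. Among genes chosen for the largest folds, 40 of 42 stayed past 2-fold under 75th percentile scaling and 42 of 42 under quantile normalization. Without pancreas, also added later, Tnnt3 was at least 196-fold and Ckm at least 193-fold higher, so the noise of the pancreas arrays sets many bounds. Among probe sets above noise on all arrays, muscle exceeded the mean of the other tissues by a median of 0.45 on the log2 scale on chip A and 0.25 on chip B as deposited, and by 0.23 and 0.00 after 75th percentile scaling. Without replicate arrays the spread between animals is unknown, and 5443 probe sets of chip A and 5799 of chip B had muscle signal within noise.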

Other observations

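Control probe sets along the glyceraldehyde phosphate dehydrogenase message gave a ratio of the 3′ to the 5′ end of 1.16 in muscle on chip A and 1.19 on chip B. Control probe sets for beta-actin read 32570 at the 3′ end, 6473 in the middle and 23046 at the 5′ end in muscle on chip A, and 40032, 8109 and 29971 on chip B, while the 3 probe sets named Actb read 1297, 929 and 162 in muscle. The 3′ control was highest in muscle, against 2620 to 18855 elsewhere on chip A and 4293 to 24660 on chip B. The 5′ control was also highest in muscle on both chips. In the middle the adipose-labelled sample read more, 14362 and 19592.

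Unnamed probe sets stood among the brightest of muscle. The second brightest of chip B read 170008 in muscle and -975 to -357 elsewhere, at least 65.3-fold higher, and 70 of the 216 probe sets called higher had no single gene. The brightest unnamed probe set of chip A read 61867 in muscle and 16900 in pancreas, 3.66-fold.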
